A study of Mus musculus with 22 samples.

Results

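The spread between genetically alike mice was measured in liver, gene by gene, and compared between male offspring eating a western diet and male offspring eating a low-fat control diet. A probe was included when its detection p was under 0.05 on 15 or more of the 22 arrays, which kept 12653 of 45281 probes. Of these, 11455 carried 1 gene name and stood for 8054 genes, and 10315 were detected on all 22 arrays. At the edge of the rule, 245 probes detected on exactly 15 arrays were in, among them Lep, and 248 detected on 14 arrays were out, among them Col1a1. The mean of each group was removed first, so the values below describe distances of mice from their own group and not the effect of a diet on the mean.

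All animals were C57BL/6J males of 29 weeks, an inbred strain, with 1 liver array per mouse. Dams entered at 5 weeks of age, ate a western (W) or low-fat control (L) diet for 6 weeks before mating and stayed on it through gestation and lactation. After weaning the sons were themselves fed W or L, over 24 weeks. In a group's name the dam's diet comes first and the son's second. There were 6 LL mice and 6 WW mice, and LW and WL held 5 mice each, so that 11 mice were western-fed and 11 low-fat-fed. The submitters state that they removed 1 experimental and 1 biological outlier before deposit, which bears directly on any measure of spread. The labels do not give litters, cages or the hour of tissue collection, so mice of a group may be littermates. Mice are named by group and number, as LL1.

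Mice of an inbred strain share their genome, and differences among them in the liver can come from body state, feeding and clock time, inflammation and the handling of tissue and RNA. Some liver genes are known for wide swings: clock output genes follow the hour, sterol synthesis genes follow cholesterol supply through SREBP2, acute-phase genes follow cytokine signals through C/EBP and STAT3, and male-specific genes follow pulses of growth hormone through STAT5. In whole tissue, more cells of a type and more RNA per cell cannot be told apart.

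The promoters of 4 genes that moved together across mice, and of 1 clock gene, are shown because their correlated deviations are described further down. The windows hold 250 bases before and 50 after the start of the gene, from RefSeq on build GRCm38.p6, in the direction of transcription. Capitals mark TTNNGCAA, the letters of a C/EBP site, in the first 4 windows, and CACGTG, the E-box read by CLOCK and its partner, in the last. Both strands were searched.
Saa1, chr7:46742931-46743230, minus strand: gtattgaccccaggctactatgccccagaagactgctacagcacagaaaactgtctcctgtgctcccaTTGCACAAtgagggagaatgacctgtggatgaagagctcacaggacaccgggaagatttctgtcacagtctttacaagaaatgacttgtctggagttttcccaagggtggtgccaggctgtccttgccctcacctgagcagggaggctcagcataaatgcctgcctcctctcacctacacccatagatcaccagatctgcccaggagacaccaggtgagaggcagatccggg
Saa2, chr7:46751583-46751882, plus strand: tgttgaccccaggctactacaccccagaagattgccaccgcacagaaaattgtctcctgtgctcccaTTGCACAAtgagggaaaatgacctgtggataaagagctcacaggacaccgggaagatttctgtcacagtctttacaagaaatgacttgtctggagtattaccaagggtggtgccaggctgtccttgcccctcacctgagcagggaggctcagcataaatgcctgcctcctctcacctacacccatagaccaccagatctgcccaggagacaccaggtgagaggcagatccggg
Lcn2, chr2:32387690-32387989, minus strand: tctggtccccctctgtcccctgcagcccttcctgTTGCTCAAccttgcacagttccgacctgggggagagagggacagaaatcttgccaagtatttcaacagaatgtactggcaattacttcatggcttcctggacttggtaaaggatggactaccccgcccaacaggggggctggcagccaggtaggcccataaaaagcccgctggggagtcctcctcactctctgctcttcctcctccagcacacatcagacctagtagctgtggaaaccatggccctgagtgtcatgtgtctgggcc
Orm2, chr4:63362199-63362498, plus strand: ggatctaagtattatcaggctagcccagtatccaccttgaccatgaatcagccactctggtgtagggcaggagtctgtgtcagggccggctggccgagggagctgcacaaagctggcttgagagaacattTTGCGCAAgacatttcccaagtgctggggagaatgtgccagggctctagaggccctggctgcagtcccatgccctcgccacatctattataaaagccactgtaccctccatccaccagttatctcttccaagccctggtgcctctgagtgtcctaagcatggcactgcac
Ciart, chr3:95882179-95882478, minus strand: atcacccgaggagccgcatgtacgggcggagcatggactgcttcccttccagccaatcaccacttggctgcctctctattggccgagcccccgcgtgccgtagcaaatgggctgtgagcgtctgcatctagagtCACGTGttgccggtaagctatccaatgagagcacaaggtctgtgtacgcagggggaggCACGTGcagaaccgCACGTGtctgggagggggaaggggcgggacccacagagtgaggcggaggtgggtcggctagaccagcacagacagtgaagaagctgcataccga
The C/EBP letters occurred once in each of the 4 acute-phase windows and in 10.8% of all 32851 promoter windows. They also occurred in the window of Nsdhl, a gene of sterol synthesis. The Saa1 and Saa2 windows, which face away from each other on chromosome 7, were 95.3% identical over 301 aligned columns. Ciart, a repressor of the clock, held 3 E-boxes, and the letters occurred in 7.15% of all windows. An E-box was also found in both windows of Tef, and none in that of Dbp or Usp2. No window of Sqle, Per2 or Fdps was used here, and that of Cyp51 held none of the letters searched, including TCACNCCAC, an SREBP site present in 1.24% of windows. The letters of a STAT5 site, TTCNNNGAA, present in 8.3% of windows, were found in Dbp. The window of the male-specific gene Hsd3b5 held none of the letters searched, nor did those of Mvd and Usp2. The C/EBP letters were added after the values had been seen, and a match is a description of the letters only.

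Between 13285 and 15105 probes were detected per array and the mean signal ranged from 151 to 276, lowest in LL1. Hepatocyte transcripts were strong on every array, Apoa1 between 14.7 and 15.3 and Ttr between 13.6 and 14.6 on the log2 scale, while the Alb probe of this array was dim at a mean of 6.67. Of 4 bile duct markers, Krt19 and Epcam were detected on 0 arrays, Krt7 on 8 and Sox9 on all 22. The 4 muscle markers Acta1, Myh4, Ckm and Tnnt3 were detected on 0 arrays. Of 7 exocrine pancreas markers, Cela2a (5 arrays, 8.15), Pnlip (1 array, 5.80), Cpa1 (4 arrays, 5.52) and Ctrb1 (3 arrays, 5.17) were highest in WL5, Prss2 and Amy2a5 were detected on 0 arrays, and Cela1 on all 22. The part of pancreatic RNA in the spread carried by WL5 was not tested. The arrays lay on 4 slides. Fitting slide removed a median of 31.1% of the within-group variance, where 16.7% is expected without any slide difference, and slides 1 to 4 lacked WL, LL, WW and LW mice in turn.

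The distance of a whole liver from its group did not differ detectably by diet. For each mouse the deviations were scaled for group size and summarised as the root mean square over all 12653 probes. Western-fed mice had a distance of 0.300 ± 0.0373 (SD, n = 11) and low-fat-fed mice 0.308 ± 0.0803 (SD, n = 11) on the log2 scale, a difference of -0.0077 (two-sided permutation p = 0.808). In LL the distances ran from 0.244 to 0.513 with a median of 0.280, and in WW from 0.262 to 0.363 with a median of 0.299. The 5 LW mice lay at 0.353, 0.300, 0.291, 0.259 and 0.263. The 5 WL mice lay at 0.273, 0.284, 0.249, 0.265 and 0.385. The groups overlapped throughout. The mice farthest from their group were both low-fat-fed, LL1 at 0.513 and WL5 at 0.385, followed by WW6 at 0.363. Within dam diets, LW minus LL was -0.0290 (exact permutation p = 0.699) and WW minus WL was 0.0153 (exact p = 0.591). With slide fitted the difference was -0.00045 (permutation p = 0.974), and without LL1 it was 0.0194 (permutation p = 0.293).

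**Figure D1:**
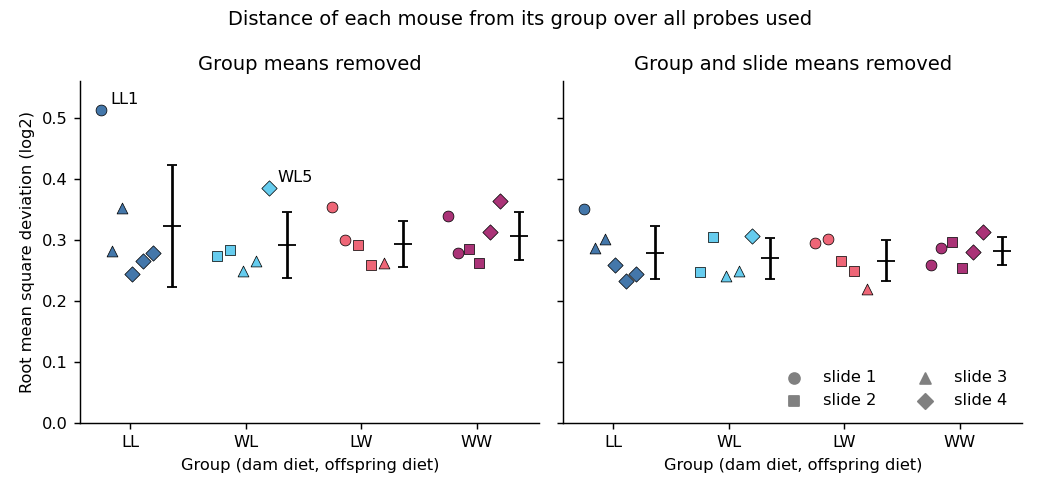
Root mean square deviation of each mouse from its group mean over 12653 probes, on the log2 scale, before (left) and after (right) slide means were removed; each point is a mouse, its shape the slide, and bars are mean ± SD. LL1 at 0.513 and WL5 at 0.385 stand highest on the left, and on the right all mice lie between 0.218 and 0.351.

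The largest shared direction of deviation moved with array signal and with slide. The first principal component of the deviations held 24.9% of their sum of squares. Over the 22 mice its score correlated with the number of detected probes (r = -0.64, rho = -0.71, permutation p = 0.00107, adjusted over 6 relations 0.00642) and with mean signal (r = -0.63, rho = -0.49, permutation p = 0.0114, adjusted 0.0341). Without the 2 mice farthest from the median, r was -0.69 and -0.46. LL1 had the most extreme score of all mice. The score was positive in every mouse of slide 1, from 0.050 in WW2 to 0.419 in LL1. It was negative in every mouse of slides 3 and 4. Slide and array signal were not separated in these correlations. The part of array signal in the spread of single genes was not tested beyond the fits with slide and without LL1.

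Probe by probe, no spread difference between the diets passed the test. The absolute deviations were fitted with limma over all 12653 probes: 0 probes (0% of those tested) reached a Benjamini-Hochberg adjusted p under 0.05, the smallest being 0.117. At an unadjusted p under 0.05, 394 probes (3.11%) had a larger spread in western-fed mice and 444 (3.51%) a smaller one. Squared deviations also called 0 probes, with 4.94% at an unadjusted p under 0.05. Deviations from the group median called 0, with 237, and the F test of the 2 pooled variances called 0, with 720. LW against LL and WW against WL gave 0 calls each, with 858 and 871 probes at an unadjusted p under 0.05. The dependence of the diet difference on the dam's diet gave 0 calls and 940 such probes, and the comparison of dam diets 0 calls and 800.

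The distribution of variance ratios centred near equality. The median SD over probes was 0.254 in western-fed and 0.268 in low-fat-fed mice. The variance was higher in western-fed mice at 45.9% of probes, and the median log2 variance ratio, western-fed over low-fat-fed with 9 degrees of freedom each, was -0.10. With slide fitted it was -0.02, with 49.1% of probes higher. A single mouse set the sign: without LL1 the median was 0.25 and 59.0% of probes were higher in western-fed mice. LW over LL had a median of -0.40, and 0.30 without LL1. WW over WL had a median of 0.26, and 0.68 without WL5. By group the median SD was 0.270 in LL, 0.238 in LW, 0.231 in WL and 0.252 in WW. It was 0.212 in LL without LL1 and 0.200 in WL without WL5. Within slides, the ratio could be formed on slide 2, with a median of 0.55, and on slide 4, with 0.0012, on 1 or 2 degrees of freedom per diet. Slides 1 and 3 gave none, because on each of them 1 diet had no group with over 1 mouse.

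Probes whose mean level differed by diet are set apart next. Of the 211 probes with a mean higher in western-fed mice by over 0.5, 29.9% had the higher variance there and their median ratio was -0.44. Without LL1 the median was -0.29, and with slide fitted -0.13. Of the 187 probes with a mean lower by over 0.5, 48.1% had the higher variance in western-fed mice, with a median of -0.04. Without LL1 the median was 0.27 and the share 59.4%, and with slide fitted 0.22 and 57.8%.

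**Figure D2:**
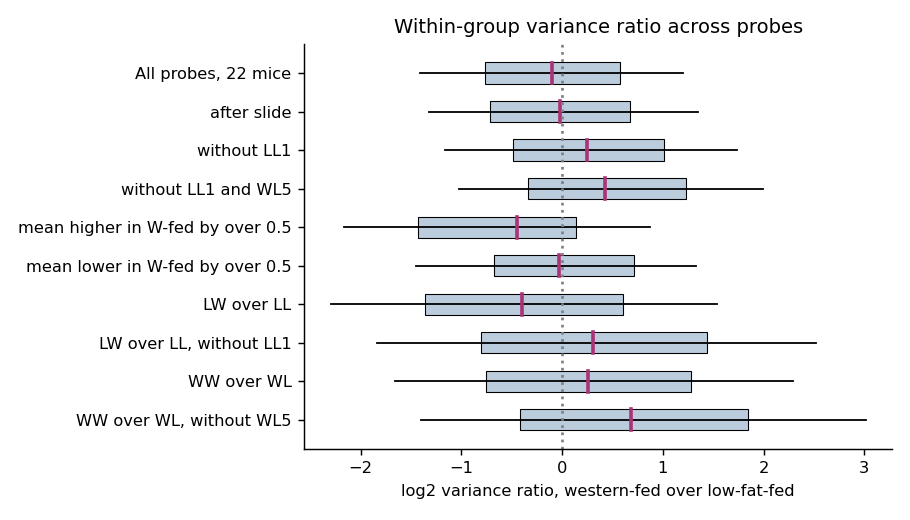
Log2 ratio of within-group variance, western-fed over low-fat-fed, across probes: boxes span the quartiles, lines the 10th to 90th percentiles, and the coloured mark is the median. The median over all probes is -0.10 with 22 mice and 0.25 without LL1, on opposite sides of the dotted line of equal variance.

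Among the genes with the smallest p-values for a larger spread in western-fed mice, were male-biased P450 genes. None passed adjustment, so the following are descriptions. Cyp4a12b, a male-biased fatty acid hydroxylase, had a pooled SD of 1.15 in western-fed and 0.42 in low-fat-fed mice (limma on absolute deviations, difference 0.67 ± 0.14 SE, adjusted p = 0.361). The log2 levels were 7.35, 8.02, 8.36, 10.36 and 10.51 in LW, and ran from 7.95 through a median of 8.94 to 10.19 in WW. In WL they were 11.10, 11.21, 11.53, 11.93 and 12.21, and in LL they ran from 11.14 through 11.91 to 12.04. Every western-fed mouse lay below every low-fat-fed mouse, and the western-fed mice were spread over a wider range. The log2 variance ratio was 2.87, 2.93 with slide fitted, and between 2.60 and 3.19 with any 1 mouse left out. Without LW4 its adjusted p was 0.0158. Its neighbour in the family, Cyp4a12a, had SDs of 0.72 and 0.35 (adjusted p = 0.674), and the probes of such near-identical genes may share signal. Cyp2d9, a further male-biased P450, had SDs of 0.36 and 0.14 (adjusted p = 0.621). Its log2 variance ratio of 2.70 fell to 1.76 with slide fitted. That of Cyp4a12a was 2.13, 1.94 with slide fitted and 1.55 without WW3. Of the 23 male-biased genes measured, 13 had the higher variance in western-fed mice.

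Other genes with a larger spread in western-fed mice had varied roles. Skil, a repressor of TGF-beta signalling, had SDs of 0.54 in western-fed and 0.18 in low-fat-fed mice (adjusted p = 0.575). Its log2 variance ratio of 3.20 became 4.88 without WL5. Its LW levels were 5.17, 5.54, 6.26, 6.62 and 6.80, whereas LL ran only from 6.72 to 6.95. Mvd, an enzyme of sterol synthesis, had SDs of 0.66 and 0.25 (adjusted p = 0.621), but its ratio fell from 2.79 to 0.96 with slide fitted. Vav2, a signalling adaptor and exchange factor, went from 3.70 to 0.96 in the same way. Reln, a secreted protein made in liver by stellate cells, had a ratio of 2.70, and 3.12 with slide fitted.

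The gene with the smallest p of all was tighter in western-fed mice. Slc16a5, a monocarboxylate transporter, had SDs of 0.40 in western-fed and 0.97 in low-fat-fed mice (difference -0.60 ± 0.11 SE, adjusted p = 0.117). Its levels were 5.82, 6.15, 7.56, 8.19 and 8.23 in WL and ran from 7.03 through 8.02 to 8.94 in LL. In LW they were 7.83, 7.87, 7.87, 7.94 and 8.52, and in WW they ran from 7.36 through 8.12 to 8.50. The low-fat-fed mice reached further below, and somewhat further above, the western-fed band. The ratio was -2.56, and -2.66 with slide fitted. Its adjusted p fell below 0.05 in 4 of the 22 fits that left out 1 mouse, those without WL2 (0.0423), WL3 (5.3e-04), WL4 (0.0469) and LW5 (0.0162).

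Several further genes were more even under the western diet, each of them less so with slide fitted. Rgl2, an exchange factor for Ral, had SDs of 0.10 and 0.35 (adjusted p = 0.393) and ratios of -3.71, and -2.20 with slide fitted. Gtpbp3, a modifier of mitochondrial tRNA, had 0.11 and 0.31 (adjusted p = 0.393), and its ratio moved from -2.98 to -1.42. Nox4, an NADPH oxidase, had 0.16 and 0.38 (adjusted p = 0.575), and its ratio moved from -2.43 to -1.46. Ccl19, a chemokine that guides cells bearing CCR7, had 0.15 and 0.41 (adjusted p = 0.621), and its ratio moved from -2.83 to -1.46.

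For other genes the ratio moved strongly with LL1 and WL5, or with 1 other mouse. Lgals1, which encodes galectin-1, had SDs of 0.48 in western-fed and 1.40 in low-fat-fed mice. Its lowest levels were 7.41 in LL1 and 6.57 in WL5, while the other low-fat-fed mice lay between 8.97 and 10.85. The log2 ratio of -3.08 was -0.59 without these 2 mice. Pparg, the nuclear receptor that drives fat storage, went from -3.48 to -1.18, and Gstm4, a glutathione transferase, from -3.88 to -1.15. Cyp27a1, the sterol 27-hydroxylase of bile acid synthesis, went from -3.13 to -1.94 without LL1 alone and to -4.80 without WW6. Noct, a rhythmic gene of the clock list, went the other way, with the larger spread in western-fed mice. It owed its ratio of 4.00 largely to WW6, which stood at 9.02 when the other WW mice ranged from 5.42 to 6.90. The ratio without that mouse was 1.84.

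**Figure D3:**
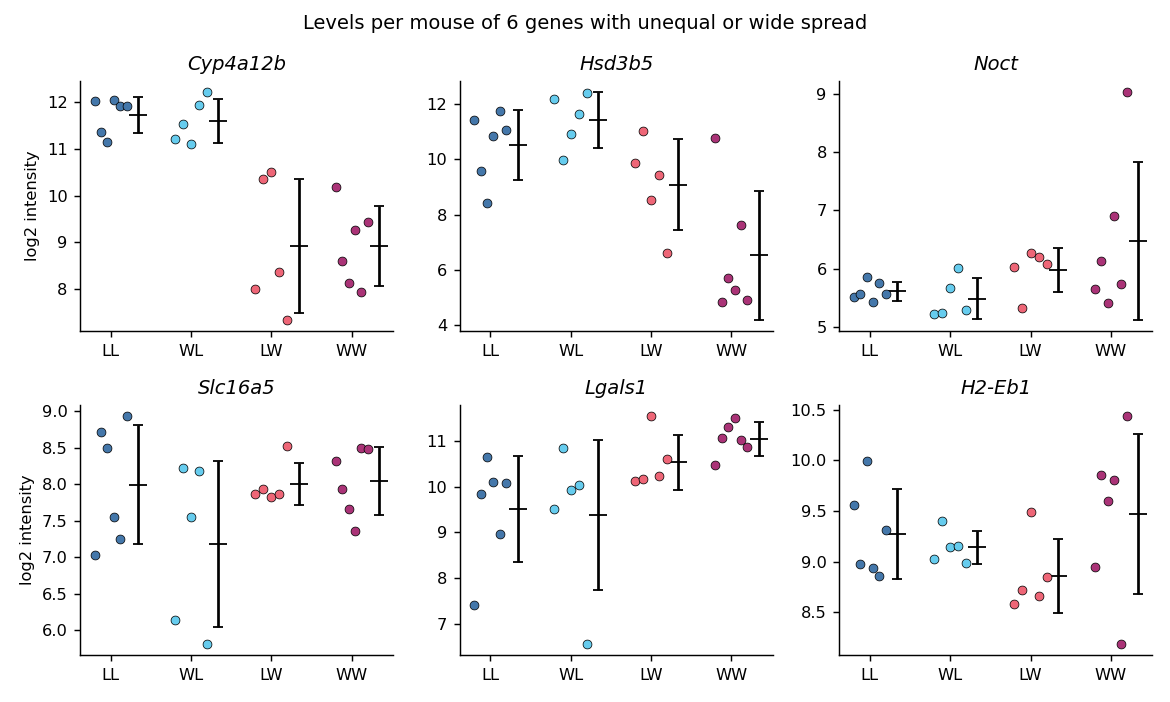
Log2 intensity of 6 genes in each mouse, with mean ± SD beside each group; the vertical axes differ between panels. Cyp4a12b and Hsd3b5 scatter widely in LW and WW, Slc16a5 scatters in LL and WL, 1 WW mouse carries Noct at 9.02, and 1 mouse each of LL and WL carries the low Lgals1 values.

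The most variable genes were variable under both diets. The median pooled SD over probes was 0.268, 524 probes exceeded 0.5 and 30 exceeded 1, standing for 22 named genes. Cyp2b9, a female-biased P450 that also responds to xenobiotic receptors, had the largest pooled SD of any named gene at 1.83. Its SD was 1.07 in western-fed and 2.35 in low-fat-fed mice (limma on absolute deviations, adjusted p = 0.736). The log2 variance ratio of Cyp2b9 was -2.28, and -1.27 with slide fitted. Its levels were 4.69, 9.64, 9.91, 11.05 and 11.41 in WL and 10.99, 11.95, 12.25, 12.30 and 12.63 in LW, and ran from 5.99 through 10.30 to 11.62 in LL and from 8.82 through 11.91 to 12.31 in WW. A single mouse stood far below the rest in LL, WL and WW, namely LL1, WL5 and WW6. The Cyp2b9 probe was detected in 4 of the 5 WL mice and in every mouse of the other groups. The related Cyp2b23 had a pooled SD of 1.43, and probes of this family may cross-react.

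Hsd3b5, a male-specific 3-ketosteroid reductase of mouse liver, had a pooled SD of 1.67, with 2.06 in western-fed and 1.16 in low-fat-fed mice (adjusted p = 0.761). WW held both the lowest level, 4.83, and 1 mouse at 10.79, WW1, with a median of 5.48. The LW mice lay at 6.60, 8.51, 9.44, 9.86 and 11.02, and the WL mice at 9.96, 10.90, 11.63, 12.19 and 12.42. LL ran from 8.42 through 10.95 to 11.76. The western-fed mice reached lower than any low-fat-fed mouse, the highest of them overlapped the low-fat-fed range without reaching its top, and 21 of the 22 arrays detected the probe.

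Genes of varied roles filled the rest of the top 12. Cidea, a lipid droplet protein, had a pooled SD of 1.65 (1.58 in western-fed and 1.71 in low-fat-fed mice). Gpnmb, a glycoprotein of lipid-laden macrophages, had 1.62 (1.57 and 1.66), with WW from 6.32 through 8.45 to 10.75 and LL from 4.60 through 6.13 to 9.58. Cfd, the adipokine adipsin, had 1.59 and Ly6d 1.55. Cib3 had 1.54, Gsta1, a glutathione transferase, 1.46, and Serpina1e, one of the alpha-1-antitrypsin genes, 1.45. Rgs16, a regulator of G protein signalling that changes with feeding, had 1.25. Their adjusted p-values for a diet difference in spread lay between 0.841 and 0.993. Among low-fat-fed mice Gpnmb was lowest in LL1, at 4.60, and within WL Cidea was lowest in WL5, at 4.55. Gpnmb was detected in 4 of 6 LL, 4 of 5 LW, 3 of 5 WL and 6 of 6 WW mice. Cidea was detected in 4 of 6 LL and 4 of 5 WL mice, and Cfd and Gsta1 each in 5 of 6 LL and 4 of 5 WL mice. Ly6d and Cib3 were detected in every mouse. Undetected values lie near background, so the SDs of the former 4 genes hold distances to it.

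Gene lists were compared by counts and medians, beside 45.9% and -0.10 over all probes. No list had a called member. Lists with under 5 members are left out. Of the others, MHC class II genes, which present antigen, had the highest median: 6 of 6 members had the higher variance in western-fed mice and the median log2 ratio was 1.40, and 1.69 with slide fitted. H2-Eb1 had SDs of 0.64 in western-fed and 0.35 in low-fat-fed mice (adjusted p = 0.763), and H2-Ab1 had 0.59 and 0.35 (adjusted p = 0.826). The width lay in 1 group: the SD of H2-Eb1 was 0.79 in WW, 0.36 in LW, 0.44 in LL and 0.16 in WL. WW ran from 8.19 in WW5 through 9.70 to 10.44 in WW6, and the LW levels were 8.58, 8.66, 8.72, 8.85 and 9.49. Leaving out 1 mouse at a time gave list medians from 0.80, without WW5, to 2.03, without LL3, and between 4 and 6 members higher.

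The extracellular matrix list came next, with 18 of 25 members higher in western-fed mice and a median of 0.61, 0.99 with slide fitted and 0.18 without WW6. Timp2, an inhibitor of matrix proteases, had SDs of 0.49 and 0.27 (adjusted p = 0.653), while Lgals1 went the other way as described. Ribosomal protein genes were higher in 28 of 41 members (median 0.52) and oxidative phosphorylation genes in 28 of 41 (0.32), at median pooled SDs of only 0.180 and 0.176. The medians were 0.16 and 0.27 with slide fitted, and 0.91 and 0.99 without LL1. Female-biased (3 of 6 higher, 0.48), fatty acid oxidation (17 of 28, 0.37) and bile acid genes (9 of 15, 0.20) had positive medians too. With slide fitted these were -0.04, 0.04 and -0.25, and without LL1 0.39, 0.58 and 0.79.

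The lowest medians were those of lymphocyte (2 of 9 higher, -0.67), interferon-response (9 of 24, -0.49) and lipid droplet genes (4 of 15, -0.43). Clock genes (3 of 13, -0.35) and lipogenic genes (4 of 15, -0.33) came next. Cell cycle (3 of 9, -0.30), urea and amino acid (8 of 24, -0.27) and antioxidant genes (8 of 21, -0.22) followed. ER stress (8 of 21, -0.19) and adipose genes (2 of 5, -0.17) were also below all probes. For these last 5 lists the medians with slide fitted were -0.51, -0.18, 0.26, -0.11 and -0.20. Without LL1 they were -0.42, 0.18, 0.004, -0.04 and 0.02. The clock and lipogenic medians turned positive with slide fitted, at 0.18 and 0.10. With slide fitted the lymphocyte, interferon and lipid droplet medians were -0.22, -0.27 and -0.14. Without LL1 the interferon median was 0.04 and the lipid droplet median -0.11. The male-biased list was mixed, with 13 of 23 higher and a median of 0.19, and with slide fitted 19 of 23 were higher and the median was 0.62. The macrophage list had 11 of 24 higher and a median of -0.05, 0.37 with slide fitted, which left-out mice moved between -0.60, without WW6, and 0.67, without LL3. Acute-phase genes stood at 12 of 24 and 0.04, -0.07 with slide fitted, and cholesterol synthesis genes at 11 of 19 and 0.07, 0.38 with slide fitted.

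**Figure D4:**
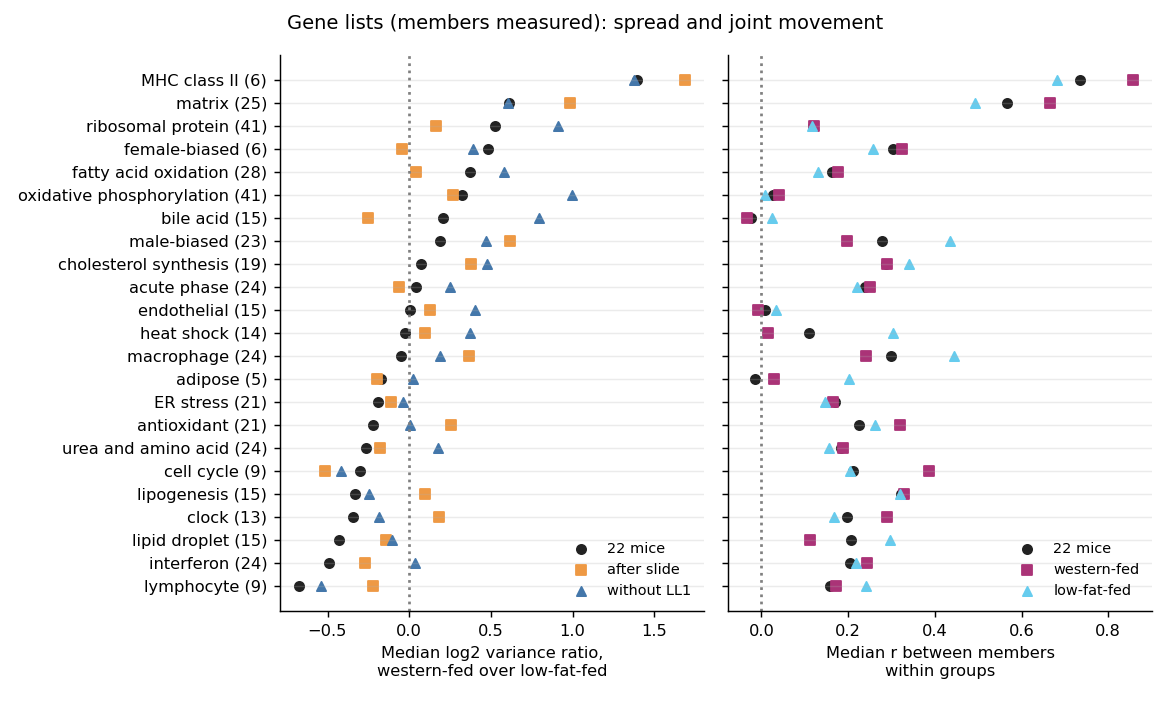
Left, median log2 variance ratio of each gene list with at least 5 members, over 22 mice, with slide fitted and without LL1; right, median correlation of members' deviations within groups in all, western-fed and low-fat-fed mice. MHC class II and matrix genes lie at the right of both panels, with medians of 1.40 and 0.61 on the left and 0.74 and 0.57 on the right.

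Deviations were correlated between genes within groups. Over the 32429400 pairs of named genes, the median r of deviations across 22 mice was 0.001 and 5.41% of pairs exceeded 0.5. With slide fitted the share was 4.36%, and without LL1 4.48%. Among the 11 western-fed mice alone 10.6% of pairs exceeded 0.5, and among the 11 low-fat-fed mice 11.5%, or 10.8% without LL1. Under -0.5 lay 5.11% of pairs over 22 mice, 10.3% in western-fed and 11.2% in low-fat-fed mice. With 11 mice r scatters more widely than with 22, so the shares by diet cannot be set against those over 22 mice. The part of array signal in these shares was not tested. Of lists with at least 5 members, MHC class II was the most correlated inside. Its median pair r was 0.74 (0.86 in western-fed and 0.68 in low-fat-fed mice). Matrix genes followed at 0.57 (0.67 and 0.49). Lipogenic genes had 0.32, macrophage genes 0.30, cholesterol synthesis genes 0.29 and oxidative phosphorylation genes 0.03.

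A set of 7 genes served as anchors, each a known marker of 1 process, and every other probe was tested with limma for following the anchor's deviation across mice with group means in the model. Col1a1, an eighth choice, fell short of the detection rule. For none of the 7 did any probe pass the test of a slope that differs between western-fed and low-fat-fed mice: there were 0 calls each, with 635 to 965 probes at an unadjusted p under 0.05. The genes nearest to each anchor were picked for their correlation, so their r and rho are descriptions, and the p given beside them is limma's, adjusted over all probes tested.

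Lcn2, which encodes the iron-binding acute-phase protein lipocalin-2, was followed by 436 probes (3.45% of those tested), 362 upward with it and 74 downward. With slide fitted 367 probes passed, 282 of them shared. With the replicate number fitted as a block 0 probes passed, and without LL3 209 did. The Lcn2 levels were 7.16, 7.61, 10.34, 10.80 and 10.94 in WL and 7.94, 9.24, 10.34, 10.78 and 10.81 in LW, from 8.69 to 11.67 in LL and from 9.92 to 12.25 in WW. The deviation of Clec7a, a beta-glucan receptor of myeloid cells, followed it with r = 0.90 (rho = 0.94, limma adjusted p = 1e-05, and 3e-04 with slide fitted). Ly6d followed with r = 0.89, and Osbpl3, an oxysterol-binding protein, with r = 0.89. Of the 25 matrix genes 15 followed Lcn2 upward, 10 with slide fitted, and of the 6 MHC class II genes 3 did, 2 with slide fitted. Of the 23 acute-phase genes other than Lcn2, 4 followed it upward, 5 with slide fitted. None of these lists had a member that followed downward. Of list genes picked after their values were seen, Timp1 (r = 0.86, rho = 0.88, limma adjusted p = 1.3e-04), Gpnmb (r = 0.85, rho = 0.83, 1.3e-04), Anxa2 (r = 0.85, rho = 0.84, 1.7e-04) and Lgals3 (r = 0.81, rho = 0.85, 7.5e-04) followed too. The collagen gene Col6a3 had r = 0.79 (rho = 0.80, limma adjusted p = 0.00168) and the MHC class II gene H2-Ab1 r = 0.73 (rho = 0.80, 0.0079). Haptoglobin, Hp, an acute-phase gene, had r = 0.02 (rho = -0.01, limma adjusted p = 0.986).

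Saa1, which encodes the acute-phase apolipoprotein serum amyloid A1, was followed by 497 probes (3.93%), 154 with slide fitted and 160 without LL1. Saa2, Lcn2 and Orm2, whose promoters are printed above, and Slamf9 were its 4 highest named correlations. Saa2 had r = 0.91 (rho = 0.84, limma adjusted p = 2e-05), but the transcripts of these genes are nearly identical and their probes may share signal. Lcn2 had r = 0.90 (rho = 0.93, limma adjusted p = 1.1e-05), 0.88 without the 2 most distant mice and 0.95 with slide fitted. Orm2, an orosomucoid of the acute phase, had r = 0.88 (rho = 0.83, limma adjusted p = 7.6e-05), and Slamf9, a receptor of myeloid cells, r = 0.90 (rho = 0.90, limma adjusted p = 4.7e-05). The correlation of Saa1 and Lcn2 was 0.93 in western-fed and 0.89 in low-fat-fed mice. In WW the Saa1 levels ran from 12.49 to 13.61, and the lowest mice of LL, LW and WL reached 11.02, 10.64 and 10.72.

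Dbp, a rhythmic activator of liver genes, was followed by 143 probes (1.13%), but by 4 with slide fitted and by 26 without LL1. Per2, a core clock repressor, had r = 0.86 (rho = 0.81, limma adjusted p = 7.7e-04), and 0.80 with slide fitted (adjusted p = 0.0599). Of the 12 other clock genes, 5 followed Dbp upward and 0 downward, and 0 did with slide fitted. Among clock genes outside the rule's 8, picked after their values were seen, Ciart had r = 0.75 (rho = 0.75, limma adjusted p = 0.0114), Bhlhe40 r = 0.75 (rho = 0.54, 0.0138), Tef r = 0.71 (rho = 0.64, 0.0329) and Usp2 r = 0.68 (rho = 0.74, 0.0334). Nr1d1, which encodes REV-ERB-alpha, had r = 0.20 (rho = 0.23, limma adjusted p = 0.688), and Noct had r = 0.05 (rho = 0.08, 0.937). Dbp ranged from 9.24 in LL1 to 11.39 in LL and from 11.99 to 12.39 in WW. The LW mice lay at 11.23, 12.16, 12.48, 12.49 and 12.70 and the WL mice at 10.66, 11.71, 11.73, 12.22 and 12.25.

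Hsd3b5 was followed by 117 probes (0.925%), 38 upward and 79 downward, and by 135 without LL1, but by 1 with slide fitted. Cela1, an elastase also made outside the pancreas, had r = 0.86 (rho = 0.83, limma adjusted p = 0.00445), and 0.78 with slide fitted (adjusted p = 0.164). Rap2a, a small GTPase, had r = 0.85 (rho = 0.82, limma adjusted p = 0.0122), and 0.75 with slide fitted (adjusted p = 0.271). Of the 22 other male-biased genes, 4 followed Hsd3b5 upward and 0 downward, and 0 did with slide fitted. Among male-biased genes, chosen after their values were seen, Cyp2c54 (r = 0.78, rho = 0.80, limma adjusted p = 0.0089), Cyp7b1 (r = 0.78, rho = 0.81, 0.0097) and C8b (r = 0.71, rho = 0.75, 0.0314) moved with it. Elovl3, a fatty acid elongase, had r = 0.61 (rho = 0.68, 0.0809) and Cyp4a12b r = 0.46 (rho = 0.28, 0.219). Gpnmb went the other way, with r = -0.75 (rho = -0.87, limma adjusted p = 0.0119), as did Spp1, osteopontin, with r = -0.77 (rho = -0.83, 0.0111). With slide fitted the adjusted p-values of Cyp2c54, Cyp7b1, C8b, Gpnmb and Spp1 lay between 0.214 and 0.455.

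Cidec, a lipid droplet protein, had the most followers of the 7 anchors over 22 mice, 942 probes (7.45%), but 17 with slide fitted and 206 without LL1. Its probe was detected on 19 of the 22 arrays, and its level in LL1 was 4.78, the lowest of LL. Its closest genes were Snhg18, a noncoding RNA (r = 0.86, rho = 0.86, limma adjusted p = 4.2e-04, and 0.0442 with slide fitted), and Nupr1, a stress-response regulator (r = 0.85, rho = 0.84, limma adjusted p = 5.5e-04, and 0.0294 with slide fitted). Cyp4a14, a fatty acid hydroxylase induced by PPAR-alpha, was followed by 7 probes (0.0553%). Sqle, squalene epoxidase of sterol synthesis, was followed by 1 probe (0.0079%), that of Cyp51, the lanosterol demethylase of the same pathway (r = 0.82, rho = 0.82, limma adjusted p = 0.0346, r = 0.86 with slide fitted). Fdps (r = 0.74, rho = 0.69), Mvd (r = 0.71, rho = 0.72) and Nsdhl (r = 0.71, rho = 0.64) had limma adjusted p-values of 0.286, 0.296 and 0.296.

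**Figure D5:**
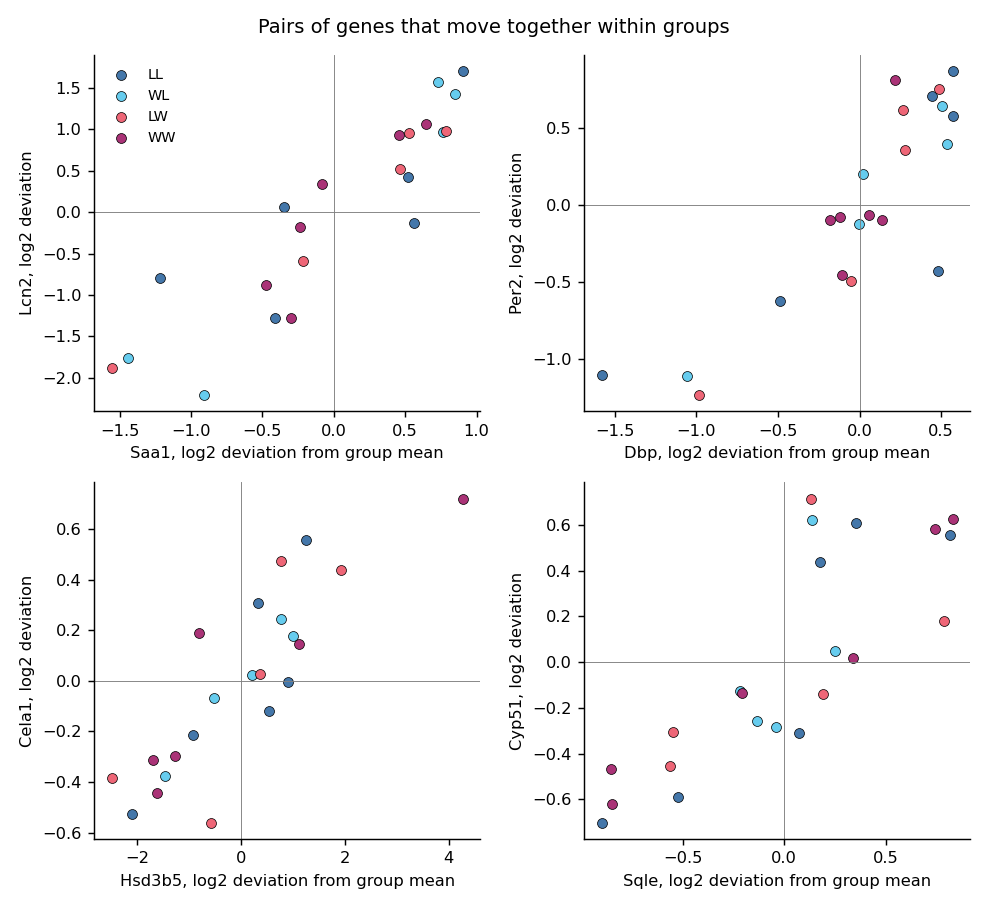
Deviations from the group mean, on the log2 scale, of 4 pairs of genes in 22 mice coloured by group. The pairs have r of 0.90 (Saa1 and Lcn2), 0.86 (Dbp and Per2), 0.86 (Hsd3b5 and Cela1) and 0.82 (Sqle and Cyp51), and mice of all 4 groups lie along each band.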

How the data were processed

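Liver RNA of 22 mice was measured on Illumina BeadChips, 1 array per mouse. The deposited table without normalization gives an intensity and a detection p-value for each of 45281 probes and each array. The authors' background subtraction shows in intensity values below 0, and its file headers name no step that put the arrays on a common scale. Per the file headers, the series matrix deposited with it is a separate intensity table, linear and with nearly equal array medians, whose normalization is not given in the sources used here. Its 22 columns each matched their own array best, and it served as an alternative, as log2 of the deposited values. Its centring is unknown.

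Intensities were corrected and quantile-normalized with neqc (limma 3.58.1, R 4.3.3, offset 16) and put on a log2 scale. Depth on arrays is signal over background, and the number of arrays limits precision. Probe names were matched to a RefSeq table (GRCm38.p6), 35713 probes to 1 gene, 191 to several and 9377 to none. The probe with the highest mean stood for a gene. Deviations from group means were scaled for group size. Their absolute values were fitted with limma on 4 groups, 18 residual degrees of freedom, with probes called where the Benjamini-Hochberg adjusted p was below 0.05. Deviations from fitted means are not independent within a group, and on simulated data this test passed more unchanged probes than its threshold states, so its unadjusted counts run high. Variances had 9 degrees of freedom per diet. Per-mouse values were compared by 100000 permutations, or over every split within a dam diet. Correlations across mice used deviations, and following an anchor was tested with limma.

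Genes were named from a rule: the 12 smallest p-values for larger and 8 for smaller spread, the 12 largest pooled SDs, members of 28 lists, 8 anchors with their 5 highest and 3 lowest correlations, and a few fixed genes. The text gives a subset chosen after the values were seen. Members, lists and anchors were chosen with earlier results of these data known. Of the fixed genes, Cyp2b13 (13 arrays), Arntl (2 arrays) and Npas2 (0 arrays) did not meet the detection rule, and Hmgcs1 was not analysed here. Alternatives were other detection filters, offset 50, no quantile step, the deposited values, slide or replicate number as a block, other deviation measures and mice left out. Replicate numbers were not treated as pairs in the main fits. Of 31 pairs of mice with the same number in different groups, 16 had deviations correlated above 0.1 (median 0.125, lowest -0.19). Of 150 pairs with different numbers, 38 did (median -0.038). Mice on the same slide had a median of 0.156, and number was not separated from slide. P-values measure the spread between these mice, whose litters are not labelled.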

Additional observations from a re-analysis of the deposited data

Results flagged for a closer look

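The gap of the most extreme mouse to its nearest neighbour was set against the range of its group (Dixon's test) in 184 sets, 1 per group for each of 42 genes and 4 array measures. It passed in 12, and 1 in 20 of the sets would be 9.2. Many of the genes were picked for wide spread and the same mice recur, so 9.2 is not a valid expectation by chance. Single entries carry little weight. WL5 stood apart in distance from its group, at 0.385 against 0.284 for the next WL mouse. The remaining entries were levels of named genes on the log2 scale. In LL1, Gstm4 was 5.73 (next 6.91) and Cyp2b9 5.99 (next 9.54). In WL5, Pparg was 6.66 (next 8.34) and Cyp2b9 4.69 (next 9.64). In WW6, Cyp2b9 was 8.82 (next 11.6), Rgs16 9.54 (next 10.7) and Cyp27a1 12.5 (next 12.7). Per2 was 8.73 in WW5 (next 7.86), Ccl19 6.23 in WW1 (next 5.92), Slc16a5 8.52 in LW5 (next 7.94) and Noct 5.32 in LW2 (next 6.03). Outside the probes that met the detection rule, the pancreatic elastase Cela2a reached 8.15 in WL5, where the highest LL mouse had 5.61. Its part in the distance of WL5 was not tested.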

How the results depend on the processing

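The count of 0 spread calls by offspring diet was also 0 under every alternative run, except without the detection filter (4) and with 1 mouse left out (0 to 2). Calls were few in the other contrasts too: LW against LL gave 1 with the replicate block and 0 to 2 with 1 mouse left out. WW against WL gave 5 on the deposited values, 7 with slide fitted and 0 to 5 with 1 mouse left out. The dependence on dam diet gave 1 on the deposited values, 20 with the replicate block and 0 to 3, and dam diets 1 with the replicate block and 0 to 4. The median log2 variance ratio ranged from -0.19 to 0.25 with 1 mouse left out, the share higher in western-fed mice from 42.7% to 59.0%, and the per-mouse difference from -0.0168 to 0.0194. The difference turned positive without LL1 and also without WL5 (0.0039). LL1 was the only single mouse whose removal turned the median. Without LL1 and WL5 together the 3 values were 0.43, 64.7% and 0.0353 (permutation p = 0.0335). These mice were singled out for their distance, so their removal lowers the low-fat-fed spread by construction. The ratio of Saa2 turned to 0.0476 with the replicate block.

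Followers changed with slide and with several other settings, and the cause was not tested. With slide fitted they numbered 1 (Hsd3b5), 17 (Cidec), 154 (Saa1), 4 (Dbp) and 1 (Cyp4a14). With the replicate block they were 1, 1, 1, 308 and 1 in this order and 0 for Lcn2. On the deposited values they were 38 (Hsd3b5), 600 (Cidec), 28 (Dbp), 1 (Cyp4a14), 0 (Sqle) and 1022 (Lcn2). Probes detected on all 22 arrays gave 12 for Cyp4a14. Without LL1 and WL5 there were 204 (Cidec), 125 (Saa1), 8 (Dbp), 0 (Cyp4a14) and 0 (Sqle). With 1 mouse left out the ranges were 21 to 195 (Hsd3b5, fewest without LL3), 206 to 1507 (Cidec, most without LL5), 160 to 778 (Saa1, most without WL5), 26 to 311 (Dbp, most without LW1), 0 to 57 (Cyp4a14, most without WW6), 0 to 1 (Sqle) and 209 to 491 (Lcn2, fewest without LL3). All 56 correlations picked as the highest or lowest with an anchor kept their sign on the deposited values and with slide fitted. They were picked for extreme r in these same mice, so the kept signs were nearly fixed in advance and carry little weight. Pooled SDs could be lower on the deposited values, 0.174 for Cidec against 0.992 in the neqc values. Over all alternatives the lowest pooled SDs were 0.857 for Cyp2b9, 0.858 for Hsd3b5, 0.560 for Cidea, 0.530 for Gpnmb and 0.602 for Cfd. That of Serpina1e was 1.10, so the ranking of genes by pooled SD depended on the setting. Leaving out LW4 gave Cyp4a12b an adjusted p of 0.0158. List medians with mice left out were added after the values were seen.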
